A study of Homo sapiens with 15 samples.

Results

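The zinc finger genes described here are the rows of the count table that map to protein-coding genes on human chromosome 19 (build GRCh38) and whose symbol is ZNF followed by a number alone. The rule was satisfied by 238 of the 28395 rows of the table, and no measured value entered it. RNA was sequenced from BEAS-2B cells, an established and virally immortalised line of human bronchial epithelium, of which 15 samples were analysed. Cells grown in medium with 50 µg/mL of polyethylene terephthalate nanoplastics (PET-NPLs) were compared with passage-matched controls that received no particles. The 24 h and 15-week time points each have 2 replicates per arm, and the 30-week point has 3 controls and 4 exposed replicates. All cultures were kept in DMEM with fetal bovine serum, and exposed cultures received fresh particles with each change of medium. The 24 h and 15-week samples carry the label batch 1 and the 30-week samples batch 2. Comparisons of exposed with control cells therefore lie within 1 batch, whereas in any comparison of 30 weeks with 15 weeks time and batch cannot be told apart. No source says that replicates came from separate cultures, so p-values measure only the spread between these samples.

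Most of these genes encode Krüppel-associated box (KRAB) zinc finger proteins. In such a protein a tandem array of C2H2 fingers reads DNA, and the KRAB domain recruits the corepressor TRIM28, which brings the H3K9 methyltransferase SETDB1 and heterochromatin protein 1 to the bound site. Many members silence retroelements, and the family grew on chromosome 19 by tandem duplication, so that close relatives lie side by side and share sequence.

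The labelled cell type was checked against its markers in CPM, counts scaled to a common library total after TMM normalization. The keratins KRT8 and KRT18 were abundant, at 127 to 710 CPM and 179 to 383 CPM across the 15 samples, and so was the mesenchymal marker VIM, at 1030 to 1877 CPM. The epithelial adhesion genes EPCAM and CDH1 stayed at or below 0.935 CPM, and the basal markers TP63, KRT5 and KRT14 at or below 0.457 CPM. KRT7 ran from 1.25 to 1414 CPM with a median of 5.29, KRT19 from 0.358 to 12.1 CPM with a median of 2.39, and KRT15 reached 1.74 CPM. The epithelial label thus rests on KRT8 and KRT18, and the basal markers TP63, KRT5 and KRT14 were at or near 0. Of the 8 tested genes of this marker list, which includes VIM, 4 were called higher and 0 lower in exposed cells at 30 weeks. Of all genes tested, 12% were called higher and 11.7% lower. The part of these markers in the results was not tested.

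Promoter sequences from RefSeq (GRCh38.p14) were matched to 208 of the 238 members, and 6 are printed because the expression results below turn on these genes. Each line holds the 180 bases from 250 to 71 before the start annotated for that promoter, with CpG dinucleotides in capitals. They run 5′ to 3′ on the strand of the gene. For ZNF793 and ZNF667 that start is an internal one, and the printed stretch lies within the gene span given below. ZNF83, ZNF525 and ZNF808 lie within 1 stretch of the chromosome and rose in exposed cells at 30 weeks. ZNF865 fell in exposed cells, and ZNF793 and ZNF667 fell to or near 0 between 24 h and 15 weeks in both arms. The windows are chr19:52690567-52690746 (minus strand), chr19:53365455-53365634 (plus strand), chr19:52527418-52527597 (plus strand), chr19:55605397-55605576 (plus strand), chr19:37506689-37506868 (plus strand) and chr19:56477416-56477595 (minus strand).
ZNF83: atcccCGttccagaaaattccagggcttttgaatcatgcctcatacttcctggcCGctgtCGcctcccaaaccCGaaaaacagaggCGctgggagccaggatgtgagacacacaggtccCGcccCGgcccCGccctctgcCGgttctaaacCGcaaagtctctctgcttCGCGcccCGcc
ZNF525: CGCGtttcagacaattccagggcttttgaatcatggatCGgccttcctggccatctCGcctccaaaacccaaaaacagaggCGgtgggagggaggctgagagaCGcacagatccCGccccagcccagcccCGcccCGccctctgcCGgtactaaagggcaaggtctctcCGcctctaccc
ZNF808: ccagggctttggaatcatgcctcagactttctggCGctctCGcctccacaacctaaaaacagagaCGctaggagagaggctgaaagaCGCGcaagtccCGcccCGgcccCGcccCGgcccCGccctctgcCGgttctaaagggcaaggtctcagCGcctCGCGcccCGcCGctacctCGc
ZNF865: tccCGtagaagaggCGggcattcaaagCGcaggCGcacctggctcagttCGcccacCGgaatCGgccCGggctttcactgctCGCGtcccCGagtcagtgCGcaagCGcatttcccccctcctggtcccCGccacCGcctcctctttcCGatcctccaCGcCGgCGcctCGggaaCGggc
ZNF793: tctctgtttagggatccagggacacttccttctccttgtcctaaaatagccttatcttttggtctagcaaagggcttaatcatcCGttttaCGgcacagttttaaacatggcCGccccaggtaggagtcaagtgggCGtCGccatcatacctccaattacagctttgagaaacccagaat
ZNF667: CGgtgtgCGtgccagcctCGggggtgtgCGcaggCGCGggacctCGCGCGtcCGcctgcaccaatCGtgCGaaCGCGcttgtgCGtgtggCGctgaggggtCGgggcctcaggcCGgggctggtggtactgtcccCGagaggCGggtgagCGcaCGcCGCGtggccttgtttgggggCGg

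The first 3 promoters share sequence. Of the 12-base windows of the ZNF83 promoter, 13.8% were found in that of ZNF525 and 13.5% in that of ZNF808. The longest common run was the 18-base GCCCCGCCCTCTGCCGGT (reverse complement ACCGGCAGAGGGCGGGGC), searched on both strands after the sequences had been seen. It was present in 4 member promoters, those of ZNF83, ZNF525, ZNF808 and ZNF701, and in 6 of all 27305 promoters. ZNF701 had 69, 125 and 136 counts in the 30-week controls and 179, 127, 149 and 170 in the exposed samples. Its groups thus overlapped. The member sharing most 12-base windows was ZNF813 for ZNF83, ZNF701 for ZNF525 and ZNF611 for ZNF808. Whether shared promoter sequence went with the increase was not tested. Of the 300-base member promoters (250 bases before to 50 after the start), 22 shared at least 20% of their 12-base windows with another member. CpG density differed within the family. The printed stretch of ZNF667 held 25 CpGs and that of ZNF865 held 21, against 5 for ZNF793. Those of ZNF667 and ZNF793 lie within the gene. Over the 300 bases the members had a median of 20 CpGs, against 21 for the other protein-coding genes of chromosome 19 and 22 for all protein-coding genes. At least 10 CpGs were found in 93.8% of the members, against 73.7% and 73.0%. ZNF-number genes on other chromosomes were close to the members in this share, at 90.2%, with a median of 24. The letters CCAAT, the core of the NF-Y site, were found on either strand in 52.4% of member promoters and in 35.7% of all promoters. GGGCGG, the core of the Sp1 site, was found in 69.2% against 44.6%, and TATAAA in 1.9% against 12%.

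What the members share beyond their name was read from translated reference coding sequences. A KRAB A-box pattern was present in 159 of the 238 proteins, and the number of C2H2 fingers ran from 1 to 36 with a median of 12. The pattern is fixed, so proteins without it may still hold a KRAB domain. Their transcripts were poor in GC, with a median of 42.38% among the members tested, against 60.91% for the other tested protein-coding genes of the chromosome and 48.58% for all genes tested. The members were not spread evenly. Cutting the chromosome wherever neighbouring members start more than 2 Mb apart gave 10 runs, of which the 6 with at least 5 members held 234 members. Run 1 (2819868 to 2944971) held 5, run 2 (7069703 to 12633834) 40, run 4 (19668153 to 24129968) 35, run 7 (34675979 to 37779586) 29, run 9 (42068477 to 45076478) 26 and run 10 (47520690 to 58489533) 99.

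The strand setting of the counting and the handling of reads with several matches are not given in the sources used here. Exons of 69 members overlapped an exon of another gene on the opposite strand and those of 75 members one on the same strand, so these counts may hold reads of the other gene. Of the member transcripts, 153 shared no identical 75-base stretch with a transcript of any other gene of chromosome 19, genes with overlapping exons left aside. Such stretches covered more than 20% of 5 transcripts, those of ZNF98, ZNF417, ZNF443, ZNF492 and ZNF799, at most 42.4% (ZNF98, shared with ZNF492), and the counts of these members are less certain.

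Nearly all members were expressed at modest levels. The average over the 15 samples was at least 1 CPM for 200 members and at least 10 CPM for 91. Per kilobase of exon, also averaged over the 15 samples, the median was 1.42 CPM. ZNF146, a protein made only of fingers, stood first at 24.6 CPM per kb, followed by ZNF428 at 16.6, ZNF460 at 12.1 and ZNF317 at 6.71. The filter on low counts kept 218 members. The 20 others were ZNF20, ZNF98, ZNF99, ZNF135, ZNF177, ZNF208, ZNF347, ZNF415, ZNF439, ZNF534, ZNF536, ZNF541, ZNF560, ZNF578, ZNF665, ZNF676, ZNF677, ZNF728, ZNF729 and ZNF835. Of these, 13 had 3 counts or fewer in every sample, and the highest count among the 20 was 15, for ZNF347.

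Libraries held between 23143202 and 31459990 counts. A level of 3 counts, taken as the floor, corresponded to 0.088 to 0.129 CPM. Among the 30-week libraries, exposed replicate 2 differed from the other 3 exposed samples by a chi-square of 89.7 to 138 per gene, where those 3 differed among themselves by 16.6 to 36.8. The 3 controls at 30 weeks differed by 77.9 to 109, and pairs of replicates at 24 h and 15 weeks by 9.28 to 16, so that no library was a copy of another. A set of 6 small noncoding RNAs made up 9.75% to 12.9% of the libraries at the earlier times, 22.3% to 31.03% in the 30-week controls (31.03% in replicate 1, 22.3% in replicate 2 and 26.8% in replicate 3) and 17.0% to 21.5% in the 30-week exposed samples. With those RNAs left out of every library, 42 members were called at 30 weeks, as with them. The TMM factor of control replicate 1 was 0.739, where replicates 2 and 3 had 0.918 and 0.907.

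The summed level of the members was lower at each later time in both arms. At 24 h the control samples held 3205 and 3412 CPM and the exposed samples 3060 and 3579 CPM. At 15 weeks the controls held 2475 and 2534 CPM and the exposed samples 2599 and 2611 CPM. At 30 weeks the 3 controls ran from 1350 to 1503 CPM (mean 1450 ± 86.8, SD, n = 3) and the 4 exposed samples from 1599 to 1690 CPM (1647 ± 39.3, SD, n = 4). The 30-week control mean was 0.438 times that of the 24 h controls, and the groups of different times did not overlap. At 30 weeks every exposed sample lay above every control, and the exposed mean was 1.14 times the control mean. In bulk RNA, fewer cells with a high level and less RNA per cell cannot be told apart.

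**Figure D1:**
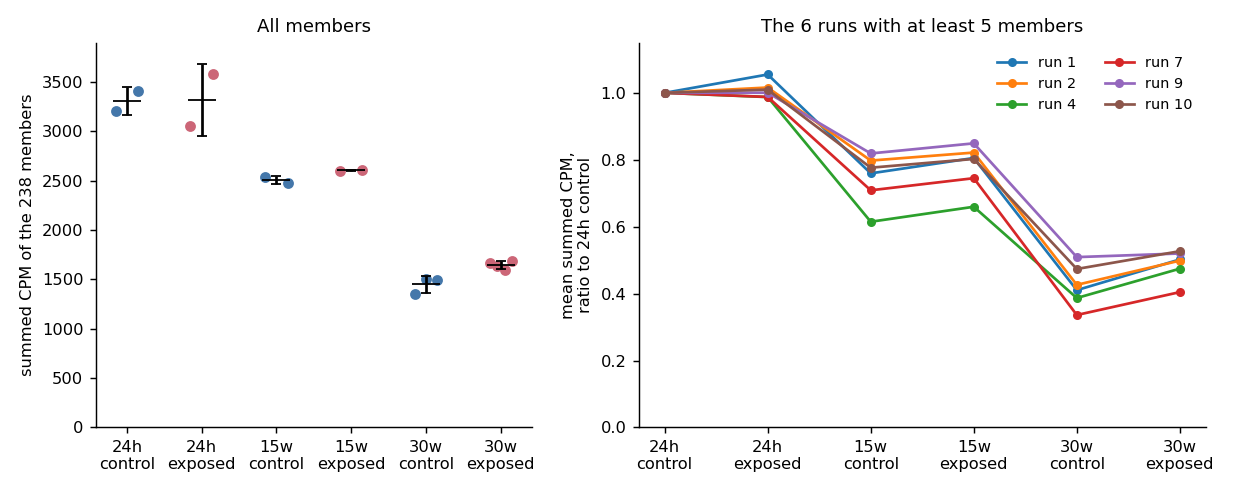
Left, summed CPM of the 238 members in each sample (points, control blue and exposed red) with the group mean and SD (bars), by condition. Right, mean summed CPM of each of the 6 runs of members divided by its 24 h control mean, by condition. The sum was 3309 CPM on average in the 24 h controls and 1450 CPM in the 30-week controls, and all 6 runs went down.

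The study asked what long exposure to PET-NPLs does to these cells, and 30 weeks was its longest. A gene was called a differentially expressed gene (DEG) at a Benjamini-Hochberg adjusted p under 0.05 in edgeR's quasi-likelihood test over all 16740 genes tested. Of the 218 members tested, 34 were upregulated and 8 downregulated in exposed cells, 15.6% and 3.7%, where 12% of all genes were called higher and 11.7% lower. The median log2 fold change of the members was 0.21, against 0.01 over all genes tested and -0.17 over the 781 other protein-coding genes of chromosome 19, of which 36 were called higher and 104 lower. ZNF-number genes on other chromosomes had 24 higher and 13 lower of 216, with a median of 0.11. More members were thus called higher than lower. Genes other than the members with a transcript GC content of 39.59% to 45.18%, the central range of the family, were higher in 16.4% and lower in 8.9%. Most single changes of the members were small: 176 members were not called, and 13 of the 34 increases and 2 of the 8 decreases reached 2-fold.

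The exposed samples lay wholly above the controls for 42 members and wholly below for 9, against 14.3% and 13% of all genes tested, and 30 of the 34 increases and 7 of the 8 decreases had no overlap. The counts moved with single libraries. Without control replicate 1 the calls were 20 higher and 3 lower, and without exposed replicate 2 they were 45 higher and 8 lower.

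ZNF83, a protein of 14 fingers without the KRAB pattern (Entrez gene 55769, 52612377 to 52690496, minus strand), had the largest called increase among members that averaged at least 1 CPM at 30 weeks and did not overlap between the groups. Its level was 0.301, 0.505 and 0.465 CPM in the 30-week controls, from 7 to 14 counts each, and 2.21, 1.96, 2.75 and 2.54 CPM in the exposed samples, from 56 to 79 counts. The groups were far apart, with a log2 fold change of 2.45 (SE 0.231, edgeR adjusted p = 1.08e-06). The same gene had stood at 12.2 and 10.3 CPM in the 24 h controls and at 4.49 and 3.86 CPM in the 15-week controls, so the 30-week exposed level lay between those of the earlier and the later controls.

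ZNF525 (Entrez gene 170958, 53365705 to 53386590, plus strand), a KRAB protein of 8 fingers encoded in the same run of members, had 1.25, 1.80 and 1.22 CPM in the 30-week controls and 4.02, 3.33, 3.65 and 3.73 CPM in the exposed samples. The groups did not overlap, which the naming rule required, and the log2 fold change was 1.36 (SE 0.184, edgeR adjusted p = 5.34e-05). ZNF600 (52764164 to 52833645, minus strand), a KRAB protein of 18 fingers that lies between the other 2, had 0.645, 1.26 and 0.895 CPM in controls and 3.12, 3.96, 3.06 and 3.03 CPM in exposed cells. The log2 fold change was 1.80 (SE 0.224, edgeR adjusted p = 2.44e-05), again without overlap by the rule.

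ZNF808 (52527668 to 52568753, plus strand), a KRAB protein of 23 fingers needed for the human pancreas to form, lies just beside ZNF701 and ZNF83. Its controls were at 3.53, 3.29 and 3.72 CPM at 30 weeks and its exposed samples at 8.44, 4.80, 7.75 and 8.03 CPM, the lowest being replicate 2, a log2 fold change of 1.05 (SE 0.184, edgeR adjusted p = 0.000633). The 24 h controls had 7.90 ± 0.204 CPM (SD, n = 2) and the 15-week controls 9.20 ± 0.418 CPM (SD, n = 2). An exon of ZNF808 overlaps ZNF701 on the same strand, and exons of ZNF83 and ZNF525 overlap unnamed genes.

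Of the other increases named by the rule, ZNF492 was at 0.364 ± 0.0643 CPM in controls (SD, n = 3) and 1.73 ± 0.36 CPM in exposed cells (SD, n = 4), with a log2 fold change of 2.23, and its reads are partly shared with ZNF98. ZNF30 rose from 0.599 ± 0.269 to 2.12 ± 0.357 CPM and the adjacent member in run 7, ZNF792, from 2.77 ± 0.912 to 6.54 ± 0.8 CPM, with log2 fold changes of 1.84 and 1.23. ZNF813, in the same stretch as ZNF525, rose from 1.61 ± 0.456 to 3.20 ± 0.307 CPM (log2 fold change 0.98). These 8 had log2 fold changes of 0.98 to 2.45. The exposed and control samples lay apart in each because the naming rule required it, so the separation is no further result. ZNF610 had 1, 0 and 1 counts in the 30-week controls and 5, 4, 17 and 5 in the exposed samples, and was called higher, at levels where replicate 3 alone sets much of the exposed mean.

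Of the 8 decreases, 5 were of members with a transcript GC content over 55%. ZNF865 (Entrez gene 100507290, 55605647 to 55617269, plus strand), with 20 fingers and no KRAB pattern, had 5.76, 2.56 and 4.51 CPM in controls and 2.43, 1.33, 2.26 and 2.50 CPM in exposed cells. The groups barely separated, with a log2 fold change of -1.0 (SE 0.324, edgeR adjusted p = 0.0346). ZNF444, a SCAN-domain protein (56132553 to 56160893, plus strand), had 11.4, 9.49 and 11.3 CPM against 7.89, 6.55, 6.67 and 7.61 CPM (log2 fold change -0.58, SE 0.159, edgeR adjusted p = 0.0149). ZNF579 fell from 6.05 ± 1.24 to 3.99 ± 0.372 CPM, ZNF787 from 28.5 ± 5.03 to 20.04 ± 2.13 CPM and ZNF428 from 37.9 ± 4.44 to 28.0 ± 1.7 CPM. The GC content of these 5 ran from 60.2% for ZNF428 to 70.9% for ZNF865, and all 5 lost their call when GC content was corrected and without control replicate 1. ZNF865 lost it also without control replicate 3, without exposed replicate 3 and with surrogate variables, and ZNF579 with surrogate variables (adjusted p = 0.0993 in limma), with only the 30-week groups fitted (edgeR adjusted p = 0.0553) and with the replicate number as a block (edgeR adjusted p = 0.0583).

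ZNF880 fell from 1.46 ± 0.115 to 0.755 ± 0.331 CPM and ZNF699 from 7.26 ± 0.453 to 5.10 ± 0.659 CPM, at transcript GC contents of 40.1% and 41.0%. ZNF880 lost its call without any 1 control or without exposed replicate 1 (edgeR adjusted p = 0.0705 to 0.0874), and ZNF699 without control replicate 3 (edgeR adjusted p = 0.0507). Both lost it with only the 30-week groups fitted, and ZNF699 with surrogate variables. The remaining decrease, ZNF556, was below 1 CPM, at 0.330 ± 0.204 CPM in controls and 0.106 ± 0.0577 CPM in exposed cells, and its groups overlapped.

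**Figure D2:**
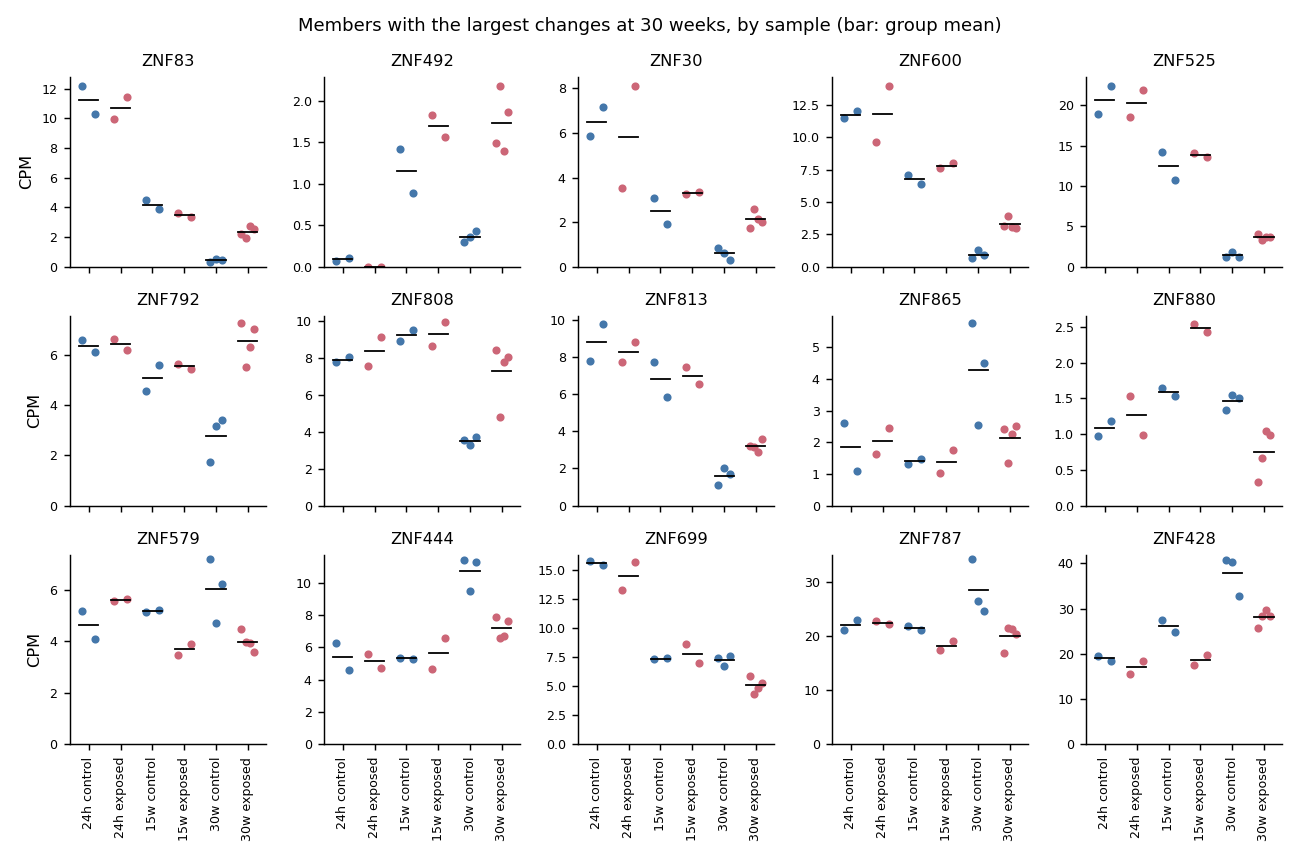
CPM of the members with the largest called changes at 30 weeks (8 higher, 7 lower) among those that averaged at least 1 CPM at 30 weeks and did not overlap between the groups, by sample (points, control blue and exposed red) and condition, with the group mean as a bar. Each vertical axis starts at 0 and has its own scale. In the first 8 panels the 30-week exposed samples lie above the controls and in the other 7 below them.

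The share of members called differed between the runs, and no difference between runs was tested. Of all members tested 15.6% were higher and 3.7% lower, and of all genes 12% and 11.7%. In run 2, 10 of 36 tested members were upregulated and 1 downregulated (median log2 fold change 0.27), while of the 84 other tested protein-coding genes between its first and last member 7 were higher and 10 lower (median -0.09). Run 4, which holds 1 other tested protein-coding gene, had 6 of 29 members higher and 0 lower (median 0.34). Run 7 had 4 higher (13.8%) and 0 lower of 29, and run 9 had 1 and 1 of 26 (3.8% each). In run 10, 12 of 90 members were higher (13.3%) and 5 lower (5.6%, median 0.16). Of its 146 neighbours 5 were higher and 26 lower (median -0.24). The shares called higher in runs 7 and 10 lay near those of all members and all genes.

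Cutting at gaps of 1 Mb split run 10 further. Between 51571283 and 53580269, where ZNF83, ZNF525, ZNF600, ZNF808 and ZNF813 lie, 10 of 33 tested members were higher (30.3%) and 1 lower (median 0.38). The shares over all members were 15.6% higher and 3.7% lower, and over all genes 12% and 11.7%. In the last stretch, from 55476617 to 58489533, 2 of 55 were higher (3.6%) and 4 lower (7.3%, median 0.11). The stretch from 11483429 to 12633834 had 8 of 23 higher (34.8%) and 0 lower. Adjacent members within a run had log2 fold changes that correlated at a Pearson's r of 0.171 over 209 pairs. The value was 0.193 for members 5 places apart (185 pairs) and 0.033 for members 10 places apart (160 pairs). These are values across genes of the same libraries, and neighbours share sequence and base composition.

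**Figure D3:**
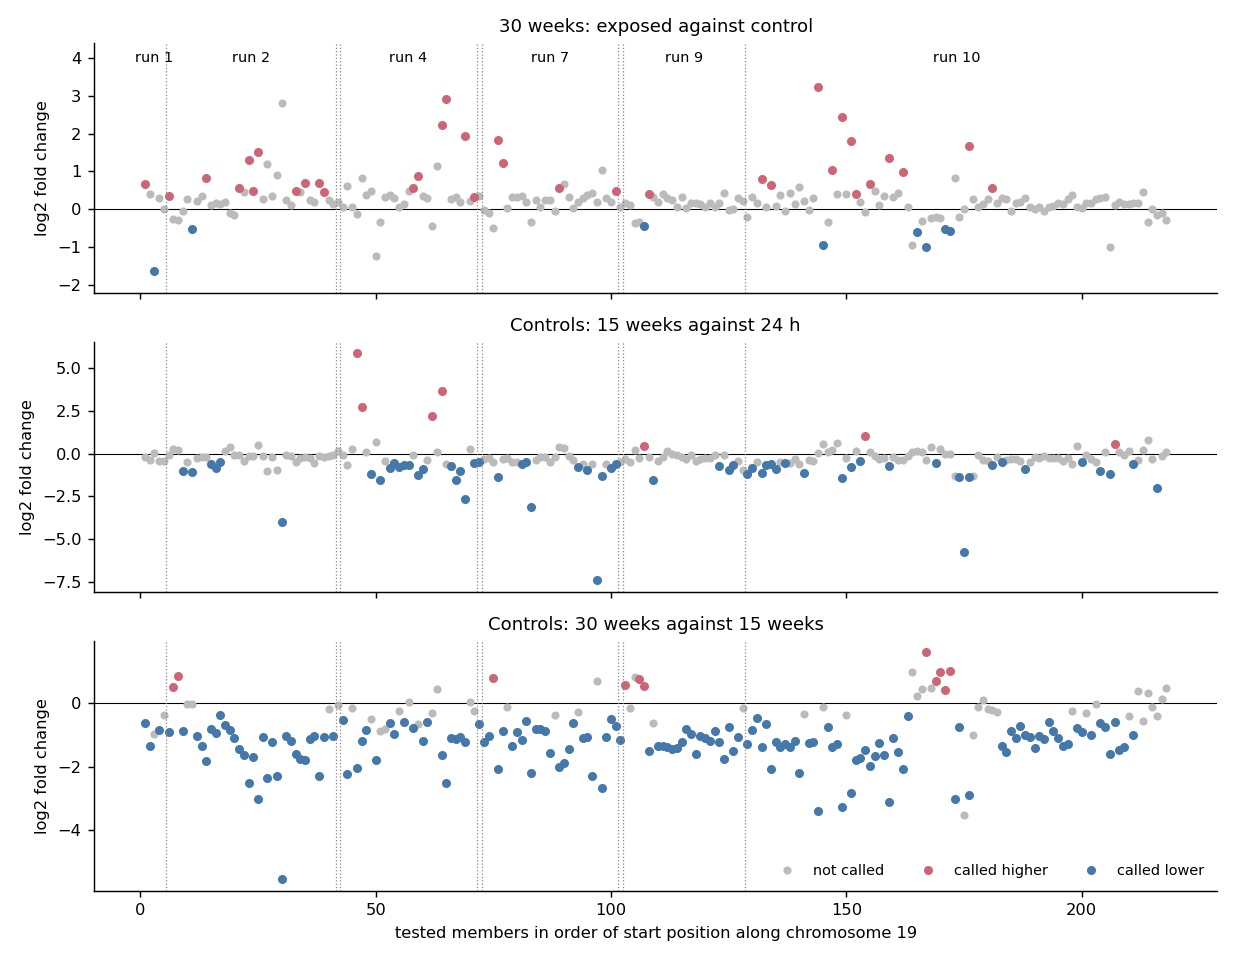
Log2 fold change of the 218 tested members in their order along chromosome 19, for exposed against control cells at 30 weeks (top) and for control cells at 15 weeks against 24 h (middle) and 30 weeks against 15 weeks (bottom). Red and blue points are called higher and lower by edgeR, grey points are not called, and dotted lines separate the runs. Fitted values of members at the floor in a group, such as ZNF793, depend on the prior count. The bottom panel has 157 members called lower and 11 higher, 5 of the latter in run 10.

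Shorter exposures left no called change among the members. At 15 weeks 0 members were called by edgeR, against 0% of all genes tested, 7 had an unadjusted p under 0.05, and the median log2 fold change was 0.05. The smallest p-values were those of ZNF428, at 26.1 ± 1.8 CPM in controls and 18.5 ± 1.53 CPM in exposed cells (SD, n = 2 each, log2 fold change -0.49, edgeR adjusted p = 0.759), of ZNF493 at 1.93 ± 0.525 and 3.48 ± 0.382 CPM (0.85, edgeR adjusted p = 0.788) and of ZNF486 at 1.17 ± 0.358 and 0.475 ± 0.0297 CPM (-1.29, edgeR adjusted p = 0.933). At 24 h 0 members were called, again against 0% of all genes, and 1 had an unadjusted p under 0.05. That was ZNF492, which was at the floor in both groups, followed by ZNF681 (log2 fold change -0.51) and ZNF491 (-0.45), with edgeR adjusted p = 1 for each. DESeq2 also made 0 calls among the members at both times.

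Whether the exposure effect differed between 15 and 30 weeks was tested directly as a difference of differences. It was higher at 30 weeks for 6 members, 2.8%, near the 2.66% of all genes, and lower for 0, against 2.08%. An unadjusted p under 0.05 was found for 29 members. The 6, named after their values were seen, were ZNF83 (difference 2.71 on the log2 scale, SE 0.321, edgeR adjusted p = 8.71e-05), ZNF730 (2.61), ZNF471 (2.14), ZNF600 (1.59), ZNF491 (1.46) and ZNF525 (1.21). Without 1 sample there were 4 to 9, with 4 when either exposed 15-week sample or control replicate 1 at 15 weeks was left out, and 9 without exposed replicate 2 at 30 weeks. ZNF730 illustrates them. It had 0.916 and 0.973 CPM in the 15-week controls and 0.993 and 1.36 CPM in the exposed samples, then 0.086, 0.217 and 0.179 CPM in the 30-week controls and 1.09, 1.297, 1.25 and 1.44 CPM in the exposed samples. The exposed samples stayed near 1 CPM while the controls at 30 weeks had between 2 and 6 counts each.

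The controls themselves were compared over time because nonexposed cells were passaged in parallel. Between 24 h and 15 weeks, both in batch 1, 59 members were lower and 7 higher in control cells, 27.1% and 3.2%, against 12.2% and 12.7% of all genes. The median log2 fold change was -0.33, against -0.02 over all genes and 0.01 over the other protein-coding genes of the chromosome, of which 74 were higher and 65 lower. In exposed cells 46 were lower and 7 higher, against 12.5% and 13.5%, with a median of -0.30. Leaving out any 1 of the 4 control samples reduced the calls to between 26 and 34 lower and 4 or 5 higher. Without exposed replicate 2 at 24 h they were 20 lower and 5 higher, and without either exposed sample at 15 weeks 23 or 24 lower and 5 or 4 higher. The 2 arms' comparisons share no samples. The decrease was called in both for 37 members, out of 59 and out of 46, and the matching share over all genes is not given here. Pearson's r between the 2 sets of log2 fold changes was 0.893 across the members and 0.826 across all genes, so agreement between the arms was not particular to the members.

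ZNF793 (Entrez gene 390927, 37506428 to 37543333, plus strand), a KRAB protein of 6 fingers, was nearly lost. It had 7.48 and 9.34 CPM in the 24 h controls, 6.63 and 9.45 CPM in the 24 h exposed samples, 2 and 1 counts in the 15-week controls, and 0.248 CPM or less in each later sample. The 24 h control mean of 8.41 CPM was at least 91.8-fold above a floor of 3 counts per library. ZNF667 (56439329 to 56478093, minus strand), a KRAB protein whose promoter is often methylated in tumours, had 2.35 and 2.94 CPM at 24 h in controls and 2.13 and 1.91 CPM in exposed cells. It had 0 and 3 counts in the 15-week controls and 0 in each of the other later samples, a fall of at least 28.9-fold in the 15-week controls against the same floor. ZNF793 and ZNF667 each overlap an antisense gene, ZNF793-AS1 and ZNF667-AS1.

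ZNF382, which represses NF-kB and AP-1 signalling, went from 4.25 ± 0.0795 CPM to 0.478 ± 0.408 CPM in controls (SD, n = 2 each, log2 fold change -3.12, edgeR adjusted p = 0.000887). ZNF844 fell from 3.24 ± 0.269 to 0.202 ± 0.161 CPM and had 0 counts in all 3 of the 30-week controls. ZNF91, the repressor of SVA elements, was among the most abundant members at 73.0 and 75.9 CPM in the 24 h controls, and it was at 28.6 and 22.9 CPM in the 15-week controls and 8.43, 12.7 and 13.9 CPM in the 30-week controls. Its decrease from 24 h to 15 weeks had a log2 fold change of -1.53 (SE 0.208, edgeR adjusted p = 5.38e-05). In exposed samples it was at 75.5 and 74.7 CPM at 24 h and at 29.0 and 25.6 CPM at 15 weeks (log2 fold change -1.46, edgeR adjusted p = 7.59e-05).

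A few members of run 4 went the other way. ZNF93, which represses LINE-1 elements and lies between 19900946 and 19935575, had 0.277 and 0.385 CPM in the 24 h controls and 1.93 and 2.51 CPM in the 15-week controls (log2 fold change 2.73, edgeR adjusted p = 0.000191). Its neighbour ZNF253 had 2 and 0 counts in the 24 h controls and at 2.65 and 1.86 CPM in the 15-week controls, at least 21.6-fold higher. ZNF43 rose from 0.383 ± 0.0027 to 1.76 ± 0.366 CPM, and in run 10 ZNF320 rose from 3.48 ± 0.32 to 7.13 ± 0.323 CPM. Run 4 had both the largest share of decreases among the 6 runs, 14 of 29, and 4 of the 7 increases, with a median of -0.53. Run 10 had 24 lower and 2 higher of 90, run 7 10 and 0 of 29, run 2 6 and 0 of 36, run 9 4 and 1 of 26, and run 1 had 0 called of 5. Of all members 27.1% were lower and 3.2% higher, against 12.2% and 12.7% of all genes.

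Between 15 and 30 weeks the decrease was broader, across the batches. In control cells 157 of 218 members were lower and 11 higher, 72.0% and 5.0%, against 24.6% and 25.6% of all genes. In exposed cells 143 were lower and 5 higher, 65.6% and 2.3%, against 22.7% and 23.3%. The median log2 fold change was -1.03 in controls and -0.83 in exposed cells. The other protein-coding genes of chromosome 19 went in the opposite direction, with 348 higher and 48 lower in controls and a median of 0.49. The ZNF-number genes on other chromosomes went with the members, with 111 of 216 lower, 21 higher and a median of -0.50. A fall of at least 2-fold was called for 111 members in controls and for 75 in exposed cells, and 135 were called lower in both arms, out of 157 and out of 143. The matching shares over all genes are not given here, so these counts cannot be read as particular to the members. Pearson's r between the log2 fold changes of the 2 arms was 0.696 across the members and 0.617 across all genes.

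**Figure D4:**
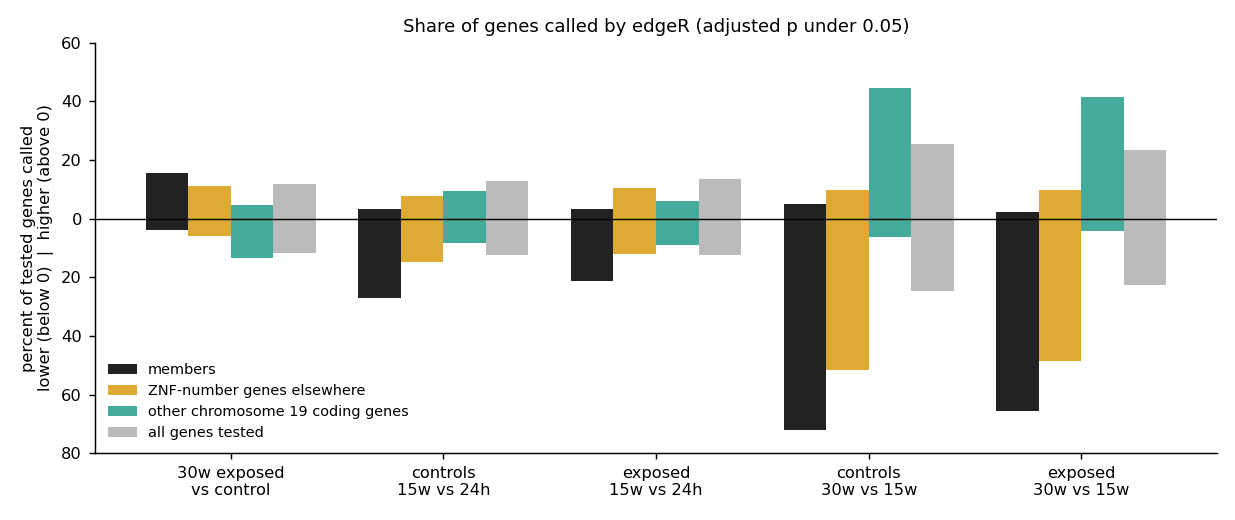
Percent of tested genes called higher (above 0) and lower (below 0) by edgeR in 5 comparisons, for the members (black), ZNF-number genes on other chromosomes (yellow), other protein-coding genes of chromosome 19 (green) and all genes tested (grey). The black bars reach 72.0% lower in controls and 65.6% lower in exposed cells between 15 and 30 weeks, where the green bars reach 44.6% and 41.6% higher.

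The 4 named decreases in controls were those of ZNF83 (log2 fold change -3.27), ZNF525 (-3.12), ZNF600 (-2.84) and ZNF491 (-2.52). The exposure comparison at 30 weeks uses the same 30-week controls, and the values of both are therefore given side by side without a count of their overlap. ZNF525, for example, was at 12.4 ± 2.46 CPM in the 15-week controls (SD, n = 2), 1.42 ± 0.331 CPM in the 30-week controls (SD, n = 3), 13.9 ± 0.411 CPM in the 15-week exposed and 3.68 ± 0.284 CPM in the 30-week exposed samples (SD, n = 4). In exposed cells the largest falls named were those of ZNF525 (-1.91), ZNF616 (-1.74), ZNF880 (-1.71) and ZNF14 (-1.68). ZNF616 went from 9.38 ± 2.12 to 2.81 ± 0.697 CPM and ZNF14 from 7.85 ± 0.131 to 2.45 ± 0.403 CPM.

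The increases over the same interval were smaller. In controls ZNF865 rose from 1.40 ± 0.105 to 4.28 ± 1.61 CPM (log2 fold change 1.60), ZNF444 from 5.31 ± 0.0843 to 10.7 ± 1.07 CPM (1.01), ZNF580 from 3.499 ± 0.392 to 6.82 ± 1.82 CPM (0.96) and ZNF414 from 1.56 ± 0.334 to 2.84 ± 0.611 CPM (0.86). In exposed cells ZNF580 (1.11), ZNF574 (0.77), ZNF581 (0.70) and ZNF8 (0.61) were the named increases. ZNF580 and ZNF581 overlap on the same strand, so that their counts may share reads. By run, 31 of 36 members in run 2, 24 of 29 in run 7, 19 of 26 in run 9, 18 of 29 in run 4 and 60 of 90 in run 10 were lower in controls. Of all members 72.0% were lower and of all genes 24.6%. Between 51571283 and 53580269 there were 30 lower and 0 higher (median -1.39), and between 55476617 and 58489533 28 lower and 5 higher (median -0.62).

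Run 4 had fewer decreases in exposed than in control cells, 11 of 29 with a median of -0.35 against 18 of 29 with a median of -0.83, but the difference between the arms was not tested over the run. The shares lower in exposed and control cells were 65.6% and 72.0% over all members and 22.7% and 24.6% over all genes. Its summed level was 136 ± 14.5 CPM in the 30-week controls (SD, n = 3) and 167 ± 2.34 CPM in the exposed samples (SD, n = 4), with no overlap. Run 2 likewise had no overlap, at 262 ± 16.1 and 306 ± 9.503 CPM. In run 9 the 2 groups overlapped, at 192 ± 5.56 and 196 ± 11.7 CPM. In run 10 they stood at 646 ± 40.7 and 719 ± 49.0 CPM, also with an overlap. Runs 1 and 7 overlapped too, at 17.4 ± 1.49 and 21.3 ± 3.14 CPM and at 165 ± 19.1 and 199 ± 22.2 CPM.

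The member with the highest mean CPM over all 15 samples was taken in each run, a choice that depends on the times pooled: in the 24 h controls ZNF229 (40.0 CPM) stood above ZNF428 in run 9 and ZNF91 (74.4 CPM) above ZNF714 in run 4. ZNF146 in run 7 was at 167 ± 11.9 CPM in the 24 h controls, 119 ± 0.887 CPM at 15 weeks and 46.5 ± 9.37 CPM at 30 weeks. ZNF562 in run 2 was at 54.6 ± 2.36, 38.8 ± 2.16 and 29.8 ± 2.01 CPM, ZNF714 in run 4 at 51.2 ± 4.67, 30.2 ± 2.39 and 25.5 ± 2.05 CPM, and ZNF555 in run 1 at 16.02 ± 0.607, 12.2 ± 1.31 and 4.73 ± 0.413 CPM. ZNF460 in run 10 was at 64.9 ± 12.3, 40.1 ± 2.87 and 34.6 ± 8.45 CPM. From 15 to 30 weeks the decrease was called for ZNF146, ZNF562 and ZNF555 and not for ZNF460 and ZNF714 (edgeR adjusted p = 0.404 and 0.159). ZNF428 in run 9 rose at both steps, from 19.02 ± 0.726 to 26.1 ± 1.8 and 37.9 ± 4.44 CPM.

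The calls were counted by features of the protein and promoter, and no difference between these groups of members was tested. Only 3 of the 23 tested members over 55% GC carry the KRAB pattern, so that this split and base composition overlap. Most members of run 9 also lacked the pattern, and members without it may still hold a KRAB domain. The split is therefore by pattern and not by domain. At 30 weeks 29 of the 146 tested members with the pattern were higher in exposed cells and 2 lower (median 0.28), against 5 higher and 6 lower of the 72 without it (median 0.13), where 12% of all genes were higher and 11.7% lower. Between 15 and 30 weeks in controls, 112 of the 146 were lower and 1 higher, against 45 lower and 10 higher of the 72. Of the 158 tested members with 10 or more fingers 28 were higher and 3 lower in exposed cells, and of the 60 with fewer fingers 6 were higher and 5 lower. Members with under 20 CpGs in the promoter had 17 higher and 3 lower of 86, and those with 20 or more had 10 and 5 of 108. Of the 27 upregulated members with a promoter sequence, 17 held CCAAT and 22 held GGGCGG. Of the 8 downregulated, 3 held CCAAT and 6 GGGCGG.

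Base composition moved with these results. The 34 upregulated members had a median transcript GC content of 41.6%, with 0 over 55%, and the 8 downregulated a median of 63.1%, with 5 over 55%. Of all 23 tested members over 55%, 15 of them in run 10, 0 were higher and 5 lower in exposed cells (median -0.26), and 9 were higher and 1 lower in controls between 15 and 30 weeks (median 0.47). Across members, Pearson's r between GC content and the log2 fold change was -0.343 for exposure at 30 weeks and 0.507 for the controls between 15 and 30 weeks, and among members at or under 55% it was -0.135 and 0.104. Genes other than the members within the central GC range of the family (39.59% to 45.18%, 3534 genes) were lower in 43.6% and higher in 12.6% in controls between 15 and 30 weeks (median -0.43), where the 108 members in the same range had a median of -1.18. For exposure at 30 weeks they were higher in 16.4% and lower in 8.9% (median 0.10, members in range 0.24). For the controls between 24 h and 15 weeks their median was -0.07 (members -0.33). With GC content corrected in every library, 28 members were higher and 4 lower at 30 weeks with a median of 0.17, and 129 were lower and 6 higher in controls between 15 and 30 weeks with a median of -0.64.

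**Figure D5:**
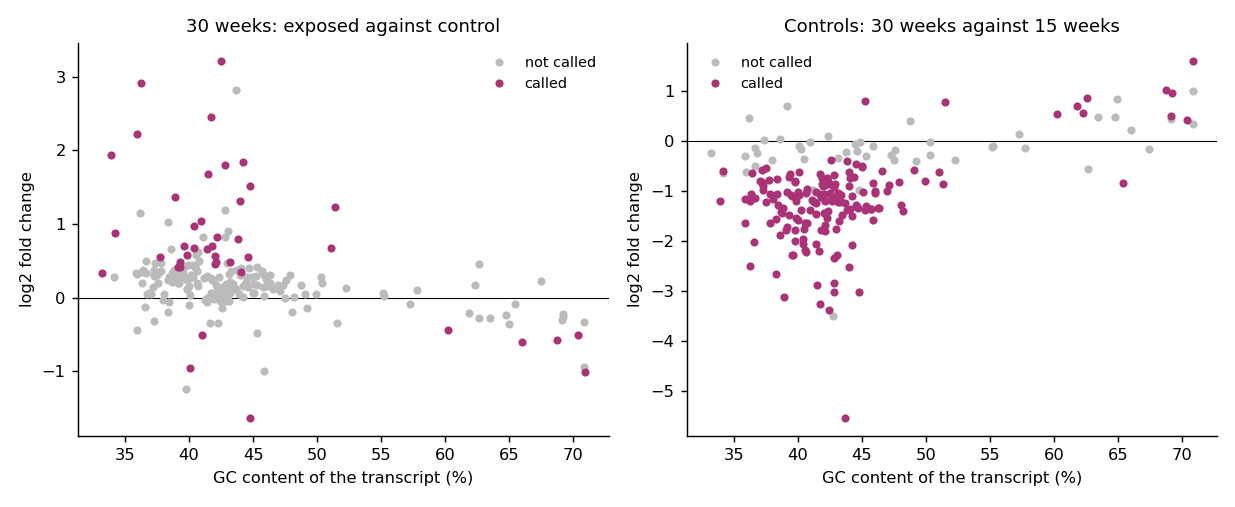
Log2 fold change of the 218 tested members against the GC content of the transcript (percent), for exposed against control cells at 30 weeks (left) and control cells at 30 against 15 weeks (right). Purple points are called by edgeR and grey points are not. The members over 55% lie mostly below 0 on the left and above 0 on the right.

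Members with a known role were listed as ZNF91, ZNF93, ZNF274, ZNF420, ZNF568, ZNF224, ZNF175, ZNF419, ZNF146, ZNF382 and ZNF8. ZNF808 is not on this list. At 30 weeks 0 of these 11 were called in edgeR between exposed and control cells, where 12% of all genes were higher and 11.7% lower, with 2 at an unadjusted p under 0.05 and a median log2 fold change of 0.17. ZNF91 was at 11.7 ± 2.89 CPM in controls and 14.8 ± 2.04 CPM in exposed cells (log2 fold change 0.34, edgeR adjusted p = 0.149), ZNF93 at 0.983 ± 0.226 and 1.74 ± 0.62 CPM (0.83, edgeR adjusted p = 0.0507), and ZNF568 at 1.59 ± 0.739 and 2.55 ± 0.338 CPM (0.66, edgeR adjusted p = 0.0642). Single libraries changed these calls. Without exposed replicate 2, ZNF91 and ZNF568 were called higher (edgeR adjusted p = 0.029 and 0.0257), and ZNF568 also without control replicate 3 (edgeR adjusted p = 0.01). ZNF93 was called without exposed replicate 1 or 3 (edgeR adjusted p = 0.0426 and 0.0418). ZNF274, which binds the 3′ ends of zinc finger genes and brings SETDB1 to them, was not called in any comparison, at 13.5 ± 1.45 and 14.9 ± 1.48 CPM at 30 weeks and 15.7 ± 2.25 CPM in the 24 h controls. Between 15 and 30 weeks 9 of the 11 were lower in controls (median -1.14), 81.8%, where 72.0% of all members and 24.6% of all genes were lower. ZNF420, an inhibitor of p53, went from 17.0 ± 1.6 to 6.30 ± 1.16 CPM. ZNF224, a repressor of aldolase A, went from 10.1 ± 1.69 to 5.14 ± 1.68 CPM. ZNF175 and ZNF419 were also lower, to 7.98 ± 1.23 and 3.66 ± 0.49 CPM.

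A second list held members whose promoters are often methylated in tumours, of which 9 were tested and ZNF135 and ZNF677 were not, with at most 1 count in any sample. In controls 5 of the 9 were lower at 15 weeks than at 24 h and 0 higher (median -1.29), where 27.1% of all members and 12.2% of all genes were lower, and in exposed cells likewise 5 and 0 (median -1.70). The 5 in controls were ZNF132, ZNF382, ZNF471, ZNF577 and ZNF667. ZNF132 went from 7.78 ± 0.461 to 1.97 ± 0.743 CPM and ZNF471 from 3.88 ± 0.44 to 1.53 ± 0.0739 CPM. ZNF331, which is imprinted, was at 17.3 ± 0.37 and 15.5 ± 0.748 CPM, ZNF154 at 3.27 ± 0.567 and 2.15 ± 0.169 CPM, ZNF671 at 6.28 ± 0.521 and 8.61 ± 0.878 CPM and ZNF582 at 0.836 ± 0.0552 and 0.343 ± 0.319 CPM, and none of these 4 was called. Between 15 and 30 weeks 6 of the 9 were lower in controls, 66.7%, where 72.0% of all members and 24.6% of all genes were lower. The median of the 9 was -1.39 as fitted and -0.80 with members at the floor set to their bound. At 30 weeks 2 of the 9 were higher in exposed cells and 0 lower, where 15.6% of all members and 12% of all genes were higher. These were ZNF471 at 0.203 ± 0.0213 and 0.661 ± 0.159 CPM and ZNF577 at 1.66 ± 0.718 and 2.91 ± 0.532 CPM. ZNF577 was not called without control replicate 1 (log2 fold change 0.54, edgeR adjusted p = 0.143), without control replicate 3 (edgeR adjusted p = 0.0698), with surrogate variables (log2 fold change 0.44) or with only the 30-week groups fitted.

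Other zinc finger genes of the chromosome without a ZNF-number symbol, 15 tested, had 3 higher and 2 lower in exposed cells at 30 weeks. Of all genes, 12% were higher and 11.7% lower. In controls between 15 and 30 weeks 4 of the 15 were higher and 4 lower, 26.7% each. These shares were near the 25.6% and 24.6% of all genes. The difference between this list and the members was not tested.

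The partners through which KRAB proteins silence chromatin were listed as 28 genes. At 30 weeks 3 were higher in exposed cells and 0 lower, 10.7%, near the 12% of all genes. These were MPHOSPH8, a subunit of the HUSH complex (log2 fold change 0.51, edgeR adjusted p = 0.00699), TRIM24, a relative of TRIM28 (0.47, edgeR adjusted p = 0.00857), and ATF7IP, the partner of SETDB1 (0.40, edgeR adjusted p = 0.0306). Without exposed replicate 2 the calls were 11 higher and 1 lower, and without control replicate 1 or exposed replicate 1 or 4 they were 2 higher and 0 lower. Without control replicate 2 they were 3 higher and 2 lower, and without control replicate 3 5 and 0. TRIM28 stood at 316 ± 52.0 CPM in controls and 305 ± 67.1 CPM in exposed cells, and SETDB1 had a log2 fold change of 0.30 (edgeR adjusted p = 0.05004), at the edge of the threshold. It was called higher in 6 of 20 alternatives, among them without exposed replicate 2 (edgeR adjusted p = 0.0195), without control replicate 3 (edgeR adjusted p = 0.0402) and with GC content corrected. Between 15 and 30 weeks 15 of the 28 were lower and 3 higher in controls, against 24.6% and 25.6% of all genes. In exposed cells 13 were lower and 3 higher, against 22.7% and 23.3%. Between 24 h and 15 weeks 1 was lower and 5 higher in controls, 3.6% and 17.9%, against 12.2% and 12.7% of all genes. Whether the list and the members differed was not tested.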

How the data were processed

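RNA of 15 BEAS-2B samples in 6 conditions was measured by stranded total RNA sequencing after ribosomal RNA depletion. According to the study's methods, the authors trimmed reads with Rfastp, mapped them to GRCh38 as distributed by GENCODE and counted them with Rsubread. The labels name featureCounts and hg38, and versions are not given in the sources used here. The deposited values are whole-number counts per Entrez gene, not normalized, for 28395 genes, and symbols were found for 27745. Total counts ran from 23143202 to 31459990 per sample.

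Counts were analysed with edgeR 4.0.16 and limma 3.58.1 in R 4.3.3. Genes were kept by filterByExpr on the 6 conditions (16740), libraries were scaled by TMM, and a quasi-likelihood model over all 15 samples with the 6 conditions as groups gave each contrast, with Benjamini-Hochberg adjustment over all genes tested. The study used limma-voom with surrogate variables, which was run as an alternative, with DESeq2 1.42.0, sva 3.50.0, other filters and scalings, a GC correction and samples left out one at a time. The script was tested on simulated data. CPM are counts scaled to a common total of the TMM-scaled library.

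Positions, transcripts and GC content are from GENCODE v44 on GRCh38, and promoters and motifs from RefSeq on GRCh38.p14. KRAB patterns and fingers were counted in translated canonical coding sequences by pattern, without a protein table. Positions in the text without a prefix are on chromosome 19 of GRCh38. ZNF66 and ZNF723 also meet the rule and were not analysed here.

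The members, lists and tests were chosen with earlier results of these data known. Members were named as the 8 largest called changes in each direction at 30 weeks, at 1 CPM or more without overlap (7 met this downward), the 4 largest over time, the 3 smallest p-values at 15 weeks and 24 h, the highest of each run, and 2 lists, and others were named after their values were seen.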

Additional observations from a re-analysis of the deposited data

Results flagged for a closer look

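In 4 of 58 sets of 4 exposed samples at 30 weeks, 1 sample's gap to its nearest neighbour was a larger part of the whole range than Dixon's 95% critical value for 4 samples allows, and chance gives this for about 1 set in 20. For ZNF600 the ratio was 0.907, with replicate 2 at 3.96 CPM and the others at 3.03 to 3.12 CPM. For ZNF420 it was 0.948, with replicate 2 at 10.5 CPM against 6.99 to 7.17 CPM. For ZNF460 it was 0.862, with replicate 2 at 38.1 CPM against 53.5 to 56.0 CPM. For ZNF274 it was 0.885, with replicate 4 at 12.6 CPM against 15.5 to 15.8 CPM. Replicate 2, the library that stood apart over all genes, was the distant sample in 3 of the 4, above the others in 2 and below in 1.

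The effect of exposure differed between 15 and 30 weeks, by the edgeR test of the difference itself, for ZNF83 (2.71 on the log2 scale), ZNF730 (2.61), ZNF471 (2.14), ZNF600 (1.59), ZNF491 (1.46) and ZNF525 (1.21). These 6 were 2.8% of the members tested, near the 2.66% of all genes called higher in this test. All 6 were higher in exposed cells at 30 weeks and not called at 15 weeks. The 15-week and 30-week samples belong to different batches, so time and batch cannot be told apart in this difference.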

How the results depend on the processing

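The 42 members called at 30 weeks (34 higher, 8 lower) became 15 at an adjusted p under 0.01 (14 and 1), 15 with a fold change of at least 2 (13 and 2) and 20 with only the 30-week groups fitted (16 and 4). Leaving out 1 sample gave 23 to 53, and 11 of the 42 were called under every alternative while 0 changed sign. The other counts were 49 with DESeq2, 33 with limma-voom, 33 with 2 surrogate variables, 36 without the count filter, 30 with at least 10 counts and 32 with GC content corrected, of which 30 were also among the 42. At 15 weeks 1 member was called (0 higher, 1 lower) with only that time's groups fitted.

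The 66 calls of control cells between 24 h and 15 weeks became 34 at p under 0.01, 29 at 2-fold and 103 with surrogate variables, and 31 to 38 without 1 sample. The 53 of exposed cells became 29, 23 and, with only the groups compared, 87, and 25 to 46 without 1 sample. Between 15 and 30 weeks the 168 calls in controls became 113 at 2-fold and 143 to 168 without 1 sample, and the 148 in exposed cells became 76 at 2-fold and 120 to 152. The 6 changes of effect became 10 with DESeq2, 2 with at least 10 counts and 4 to 9 without 1 sample. The 3 silencing partners called became 0 at 2-fold and with only the groups compared, 7 with DESeq2, 5 with limma-voom, 11 with surrogate variables, 8 with GC content corrected and 2 to 12 without 1 sample. The change of TRIM28, called in none, turned to 0.16 with surrogate variables, 0.10 with GC content corrected, and without 1 sample ran from -0.184 (control replicate 2) to 0.086 (exposed replicate 2), with 0.045 without control replicate 3. Runs with at least 5 members numbered 9 at a 1 Mb gap. The causes were not tested.

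Deviations of same-numbered samples from their group means correlated at -0.06 at 24 h, 0.029 at 15 weeks and -0.118, 0.303 and 0.098 at 30 weeks. With 2 samples per group the values of different numbers only mirror these, so the earlier times cannot show or exclude pairing. At 30 weeks samples of different numbers correlated at -0.481 to 0.359. Whether the numbers pair the samples is therefore not settled, and the main fit does not use them. With a replicate block the calls were 30 at 30 weeks (24 higher, 6 lower), 55 and 49 between 24 h and 15 weeks, 164 and 139 between 15 and 30 weeks, 5 for the change of effect and 3 silencing partners.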
